A study of Mus musculus with 4 samples.

Results

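The genes described here are 35 genes of the germline and of meiosis, taken by symbol from a fixed list in a table of read counts for 50559 genes in mouse embryonic stem cells. All 35 were in the table, and all 35 passed the filter used for ratios, a mean of at least 10 reads over the 4 libraries, which kept 18586 genes in all. The cells were E14 cells, a mouse embryonic stem cell line, grown on gelatin with leukaemia inhibitory factor. The study asked whether YTHDF2, a cytoplasmic protein that binds N6-methyladenosine (m6A) in mRNA and promotes its decay, restrains a state resembling the 2-cell embryo, and whether m6A binding is needed for that.

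There were 4 groups with 1 library each. Cells labelled shscr_EV carried a scrambled hairpin and an empty vector (shScram+EV), and cells labelled shYthdf2_EV carried a hairpin against Ythdf2 and the same empty vector (shYthdf2+EV). The other groups carried the Ythdf2 hairpin with a vector for wild-type YTHDF2 (labelled shYthdf2_WT, here shYthdf2+DF2WT) or for a YTHDF2 mutant that does not bind m6A (labelled shYtdhf2_Mut, here shYthdf2+DF2Mut). Hairpins were delivered by lentivirus under the U6 promoter and cells were kept under puromycin, so that each library came from a selected line. Which of the study's 2 Ythdf2 hairpins was used, and what promoter drove the rescue constructs, were not given in the sources used here. Read counts of 1 gene are listed throughout in the order scrambled control, knockdown, wild-type rescue and mutant rescue. With 1 library a group no test across samples could be made and no p-value is given. Each interval of a log2 ratio below is an exact 95% binomial (Clopper-Pearson) interval on read pairs. Intervals of read shares are Wilson intervals on single reads, which takes the mates of a pair as separate counts and makes them narrower. All intervals cover counting error only.

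Germline genes encode proteins used in germ cells: the synaptonemal complex and meiotic cohesins that hold homologous chromosomes together, recombinases that repair meiotic breaks, and the PIWI-interacting RNA (piRNA) machinery that silences transposons. In most somatic cells they are silent, whereas mouse embryonic stem cells transcribe many of them at a low level. A non-canonical Polycomb complex, PRC1.6, is known to hold them down in these cells through the DNA-binding partners MGA and MAX, which recognise an E-box, and E2F6 and DP1, which recognise an E2F-type site, together with DNA methylation.

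Promoter sequences are shown first because the members share features there that are not taken from the read counts. Whether the choice of genes for the list favoured these features was not tested. RefSeq windows of 300 bases (250 before the transcript start and 50 after it, build GRCm38.p6) were matched by symbol for 31 of the 35 genes, in 38 windows since some genes have more than 1 start. Piwil2, Majin, Meiob and Tex15 had no entry. The windows are given for 5 genes that were lower in both of the comparisons that share no library and for Tex19.1, which was higher in both. Capitals mark the E-box core CACGTG, which reads the same on both strands, and the E2F-type core TCCCGC or its reverse complement GCGGGA. Each sequence runs 5′ to 3′ on the strand of the gene.
Smc1b, chr15:85131908-85132207, minus strand: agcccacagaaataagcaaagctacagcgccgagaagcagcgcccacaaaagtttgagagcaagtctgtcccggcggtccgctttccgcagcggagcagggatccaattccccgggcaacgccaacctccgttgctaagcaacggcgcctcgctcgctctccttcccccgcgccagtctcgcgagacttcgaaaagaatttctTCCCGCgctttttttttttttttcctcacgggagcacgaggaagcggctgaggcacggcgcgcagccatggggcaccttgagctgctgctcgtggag
Stag3, chr5:138280259-138280558, plus strand: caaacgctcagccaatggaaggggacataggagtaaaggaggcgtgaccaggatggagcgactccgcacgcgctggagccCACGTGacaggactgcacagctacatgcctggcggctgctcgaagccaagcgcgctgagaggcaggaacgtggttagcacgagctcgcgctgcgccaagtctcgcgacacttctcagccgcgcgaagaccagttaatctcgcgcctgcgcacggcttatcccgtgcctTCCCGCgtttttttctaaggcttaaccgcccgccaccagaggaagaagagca
Sycp3, chr10:88459337-88459636, plus strand: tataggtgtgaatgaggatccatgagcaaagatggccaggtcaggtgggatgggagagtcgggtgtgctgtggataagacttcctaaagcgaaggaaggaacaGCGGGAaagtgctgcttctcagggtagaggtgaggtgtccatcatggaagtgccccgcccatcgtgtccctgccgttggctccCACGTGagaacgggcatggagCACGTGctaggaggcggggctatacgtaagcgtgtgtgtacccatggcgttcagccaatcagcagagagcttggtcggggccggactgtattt
Mov10l1, chr15:88982744-88983043, plus strand: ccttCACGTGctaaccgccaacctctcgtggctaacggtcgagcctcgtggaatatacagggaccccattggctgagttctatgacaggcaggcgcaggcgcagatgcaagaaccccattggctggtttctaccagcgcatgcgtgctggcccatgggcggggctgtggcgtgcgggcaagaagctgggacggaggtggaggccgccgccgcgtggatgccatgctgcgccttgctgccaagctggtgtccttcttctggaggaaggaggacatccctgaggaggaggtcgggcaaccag
Dmc1, chr15:79605060-79605359, minus strand: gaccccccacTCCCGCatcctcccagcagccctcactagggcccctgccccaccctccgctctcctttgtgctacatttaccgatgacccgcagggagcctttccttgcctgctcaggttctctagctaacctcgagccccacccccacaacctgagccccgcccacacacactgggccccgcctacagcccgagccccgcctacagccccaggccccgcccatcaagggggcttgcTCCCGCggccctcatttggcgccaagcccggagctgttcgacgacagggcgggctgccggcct
Tex19.1, chr11:121145893-121146192, plus strand: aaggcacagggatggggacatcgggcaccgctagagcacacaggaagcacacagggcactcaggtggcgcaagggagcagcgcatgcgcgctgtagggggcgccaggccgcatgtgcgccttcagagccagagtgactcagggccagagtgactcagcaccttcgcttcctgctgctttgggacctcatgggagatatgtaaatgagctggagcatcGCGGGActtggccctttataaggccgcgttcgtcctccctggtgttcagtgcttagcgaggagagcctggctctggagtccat

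The E-box core was present in the window of 15 of the 31 genes (48.4%), against 8.09% of all 27025 genes with a window and 11.0% of the 13124 of them that passed the read filter. Counted by window, 19 of 38 windows (50%) held it, against 7.15% of all 32851 windows, and 6 of the 38 (15.8%) held it at least 2 times, against 0.594% of all. The E2F-type core was present for 13 of the 31 genes (41.9%), against 22.1% of all genes with a window and 36.8% of those that passed the read filter. Both cores together stood in 9 of 38 windows (23.7%) against 1.99% of all windows. The E-box share was therefore further from the background than the E2F-type share. The genes with both cores were Ddx4, Mael, Sycp1, Sycp3, Stag3, Slc25a31, Hormad1 and Syce2, while 11 genes had neither core in these windows. Windows of 1 gene can overlap, as the 2 windows of Hormad1 do almost wholly, so that they are not separate observations.

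The members' windows were also richer in CpG dinucleotides, with a median of 20.5 per window against 7 over all windows and 18 over windows of the genes that passed the read filter. Genes were therefore also compared within ranges of CpG content, where a gene with several windows can stand in more than 1 range. Among genes with windows of 20 to 29 CpG, 9 of 15 members (60%) held the E-box core against 11.9% of all 4536, and with 10 to 19 CpG 3 of 14 members (21.4%) against 10.2% of all 5138. With 30 CpG or more it was 4 of 4 members against 12.1%, and below 10 CpG 0 of 2 against 4.64%. The E2F-type core was held by 7 of 15 members (46.7%) against 44.6% with 20 to 29 CpG, and by 4 of 14 (28.6%) against 26.9% with 10 to 19 CpG. At these CpG contents the E2F-type share of the members was near the background. In the windows printed above, Stag3 and Sycp3 carry both cores, Smc1b, Dmc1 and Tex19.1 only the E2F-type core, and Mov10l1 only an E-box, at the far end of the window. A match to 6 letters is a description of the sequence and does not show that a factor binds there.

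**Figure D1:**
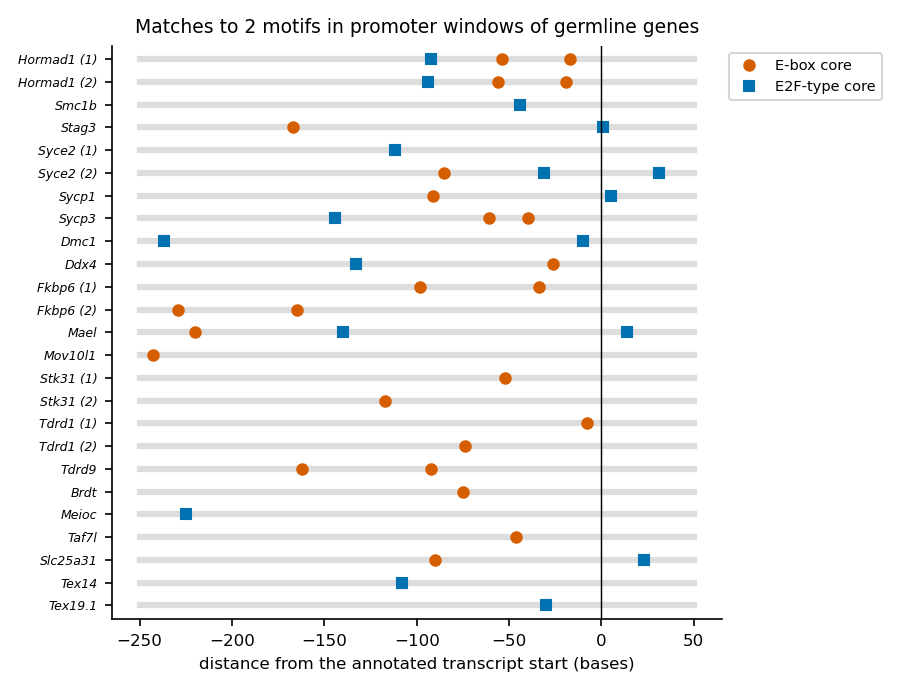
Positions of the E-box core (circles) and the E2F-type core (squares) in the 25 promoter windows of germline genes that held either. The horizontal axis gives the distance of the motif's centre from the annotated transcript start in bases, the grey bars span the 300 bases searched, and a number in brackets tells windows of the same gene apart. Sycp3 and Hormad1 each carry 2 E-boxes within 100 bases upstream of the start.

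The libraries held between 31533129 and 35742335 reads assigned to genes, and Ythdf2 itself had 2806, 662, 7661 and 6925 reads. Embryonic stem cell markers were at a high level in every library, with between 196611 and 234703 reads summed over 10 genes, and none of the 10 differed by 2-fold in any comparison. Some features of the libraries moved with the groups and bear on every ratio below. Reads on 4 Y-linked genes (Eif2s3y, Uty, Kdm5d and Ddx3y) summed to 2 for the scrambled control, 604 for the knockdown, 85 for the wild-type rescue and 528 for the mutant rescue, so that expression of Y-linked genes split the cultures in the same way as the design. Their part in the ratios below was not tested. The median log2 ratio of genes on chromosome 12, which holds 1 member, Tdrd9, was -0.29 in shYthdf2+EV against shScram+EV, while the medians of the other autosomes lay between -0.04 and 0.04. The chromosome 12 median was 0.19 in shYthdf2+DF2WT against shYthdf2+EV, with the other autosomes between -0.07 and 0.05. In shYthdf2+DF2Mut against shYthdf2+DF2WT it was -0.17, with the others between -0.09 and 0.14. Mitochondrially encoded genes took 8.44% of reads in shScram+EV and between 6.14% and 6.75% in the other libraries. With 1 line per group, the hairpin, the construct and the history of a line cannot be told apart.

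Levels are compared between genes as reads per kilobase of exon, scaled to a common depth (RPKM) with library sizes adjusted by the trimmed mean of M values (TMM). The median member stood at 5.98 RPKM over the 4 libraries, against 3.37 over all genes that passed the filter. The range was wide, from 0.146 RPKM for Mei1, which is needed for meiotic break formation, to 58.8 RPKM for Sohlh2, a germ cell transcription factor that ranked above 94.4% of those genes. Tex19.1, a placental mammal gene of germ cells and pluripotent cells, followed at 38.2 RPKM, and Dazl, an RNA-binding protein of germ cells, at 35.5 RPKM. Sycp2, Tdrd1, Tdrd9 and Brdt had means of 0.422, 0.510, 0.641 and 0.660 RPKM, so that a component of the synaptonemal complex was listed far below its partners Sycp3 (14.3 RPKM) and Sycp1 (4.57 RPKM). Fewer expressing cells and less RNA per cell cannot be told apart in such bulk libraries.

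**Figure D2:**
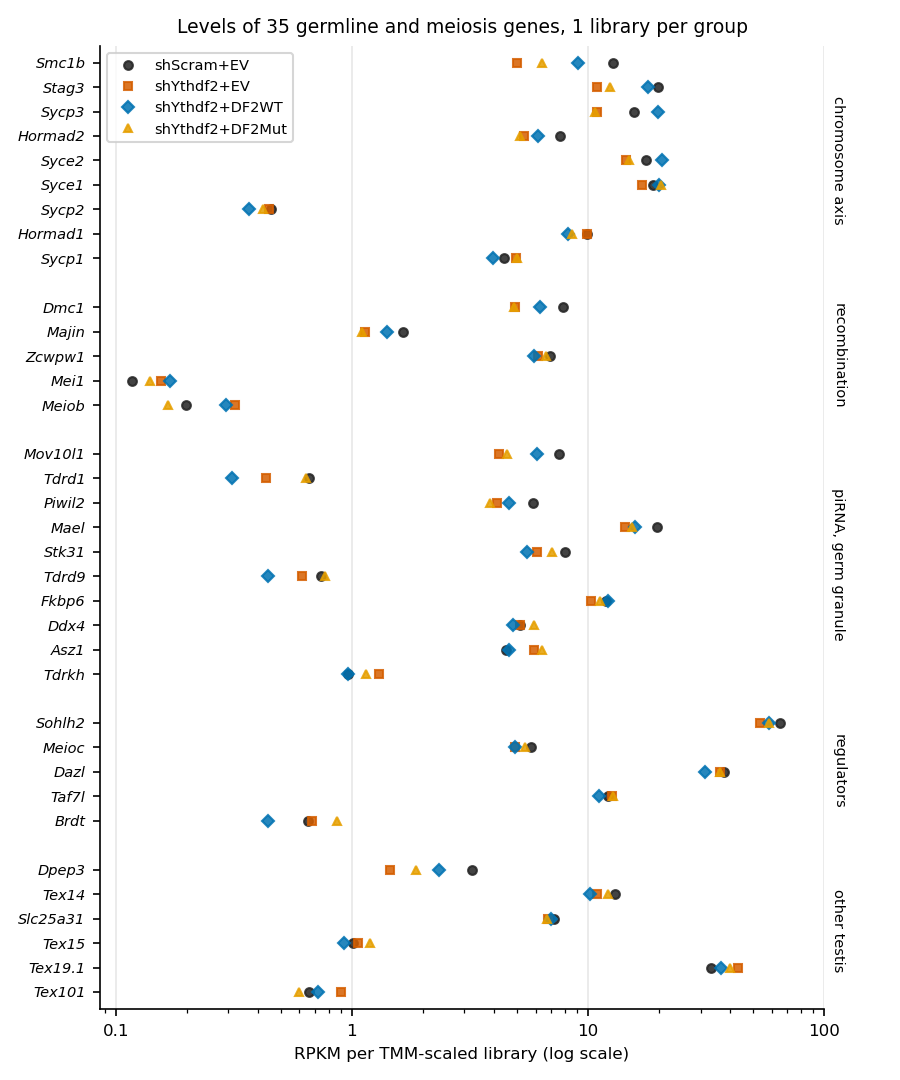
Level of each of the 35 genes in each of the 4 libraries, in RPKM per TMM-scaled library on a log axis, with genes grouped by role and ordered by their knockdown ratio. Each symbol is 1 library, and most genes span less than 2-fold between their highest and lowest library while the genes themselves span from 0.146 to 58.8 RPKM on average.

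Together the 35 genes took 33047, 31254, 30315 and 29276 reads. Of all assigned reads these were 0.102% for the scrambled control (with a 95% Wilson interval from 0.101% to 0.103%) and 0.0874% for the knockdown (from 0.0865% to 0.0884%). The wild-type rescue had 0.0930% (from 0.0920% to 0.0941%) and the mutant rescue 0.0928% (from 0.0918% to 0.0939%). The scrambled control was the highest library, the knockdown the lowest, and the rescues lay between them close to each other. The log2 ratio of the summed reads was -0.27 (-0.30 to -0.23) in shYthdf2+EV against shScram+EV. Either construct stood slightly above the knockdown, at 0.08 for both (0.05 to 0.12 for wild type and 0.05 to 0.11 for the mutant). The sum weights the genes by their reads, and Sohlh2 and Dazl had the most.

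In shYthdf2+EV against shScram+EV, the germline genes as a group were not raised. None of the 35 was higher by 2-fold or more, where 7.10% of all genes that passed the filter were, and 2 were lower by as much (Smc1b and Dpep3), where 5.70% of all genes were. That is 5.71% of the members, a share at the background. The median log2 ratio was -0.20 with 11 genes above 0 and 24 below, beside a median of -0.00 over all genes. By the counting interval, 15 of 35 (42.9%) were lower, against 22.9% of all genes, and 3 of 35 (8.57%) were higher, against 23.2% of all genes. By contrast, 9 of 10 marker genes of the 2-cell-like state were past 2-fold upward in the same comparison, with a median log2 ratio of 1.78.

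Transcripts of the chromosome axis and synaptonemal complex had a median knockdown ratio of -0.29 over 9 genes. Smc1b, the meiotic form of a cohesin ATPase (mm39, as are the gene positions that follow, chromosome 15, 84948890 to 85016158), was read 1638, 730, 1210 and 819 times. The scrambled control and the wild-type rescue were thus the upper libraries, and the knockdown and the mutant rescue the lower ones. On knockdown its log2 ratio was -1.35 (-1.53 to -1.17), with 0.86 (0.67 to 1.05) for wild-type rescue against knockdown and -0.51 (-0.70 to -0.33) for the mutant against the wild type. The mutant still stood above the knockdown, by 0.34 (0.14 to 0.55).

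Stag3, the meiotic cohesin subunit that pairs with SMC1B-containing rings (chromosome 5, 138270757 to 138310659), showed the same order of libraries, with 3044, 1910, 2851 and 1908 reads. On knockdown the log2 ratio was -0.86 (-0.98 to -0.74), with 0.70 (0.59 to 0.82) for the wild-type rescue and -0.53 (-0.65 to -0.41) for the mutant against the wild type. An exon of Gal3st4 on the opposite strand covers 1.57% of its exon bases, and the reads were counted without regard to strand. Sycp3, a lateral element protein of the synaptonemal complex (chromosome 10, 88295449 to 88309098), had 558, 442, 731 and 384 reads. Here the wild-type rescue was above the scrambled control, with a log2 ratio of 0.85 (0.61 to 1.10) against the knockdown and -0.88 (-1.14 to -0.62) for the mutant against it, the lowest mutant-to-wild-type value among the 35 genes. The Sycp3 value is less certain than the others, since 47.8% of its exon bases lie within exons of Chpt1 on the opposite strand, and reads there go to neither gene.

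Syce2, a central element protein of the synaptonemal complex (chromosome 8, 85598740 to 85614075), had 768, 715, 933 and 653 reads. Its knockdown ratio was smaller, -0.29 (-0.50 to -0.08), while the mutant was -0.47 (-0.67 to -0.26) relative to the wild type. Hormad2, an axis protein that monitors unsynapsed chromosomes, had 672, 541, 563 and 458 reads, and its log2 ratio was -0.50 (-0.74 to -0.26) on knockdown but -0.25 (-0.51 to 0.01) for the mutant against the wild type, an interval that holds 0. Not every gene of the complex went this way. Sycp1, the transverse filament that joins the lateral elements, had 497, 632, 463 and 565 reads, with the knockdown and the mutant rescue as its upper libraries. It stood at 0.16 (-0.08 to 0.41) on knockdown and 0.34 (0.08 to 0.59) for the mutant against the wild type. The latter ratio was 0.09 once GC content and exon length were corrected for. Hormad1, Syce1 and Sycp2 had knockdown ratios of 0.00, -0.16 and -0.04 with intervals that hold 0. Of the 9 genes of this role, 5 were lower on knockdown by the interval and none higher, beside 22.9% and 23.2% of all genes. For the mutant against the wild type 4 were lower and 1 higher, beside 23.6% and 23.9%.

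**Figure D3:**
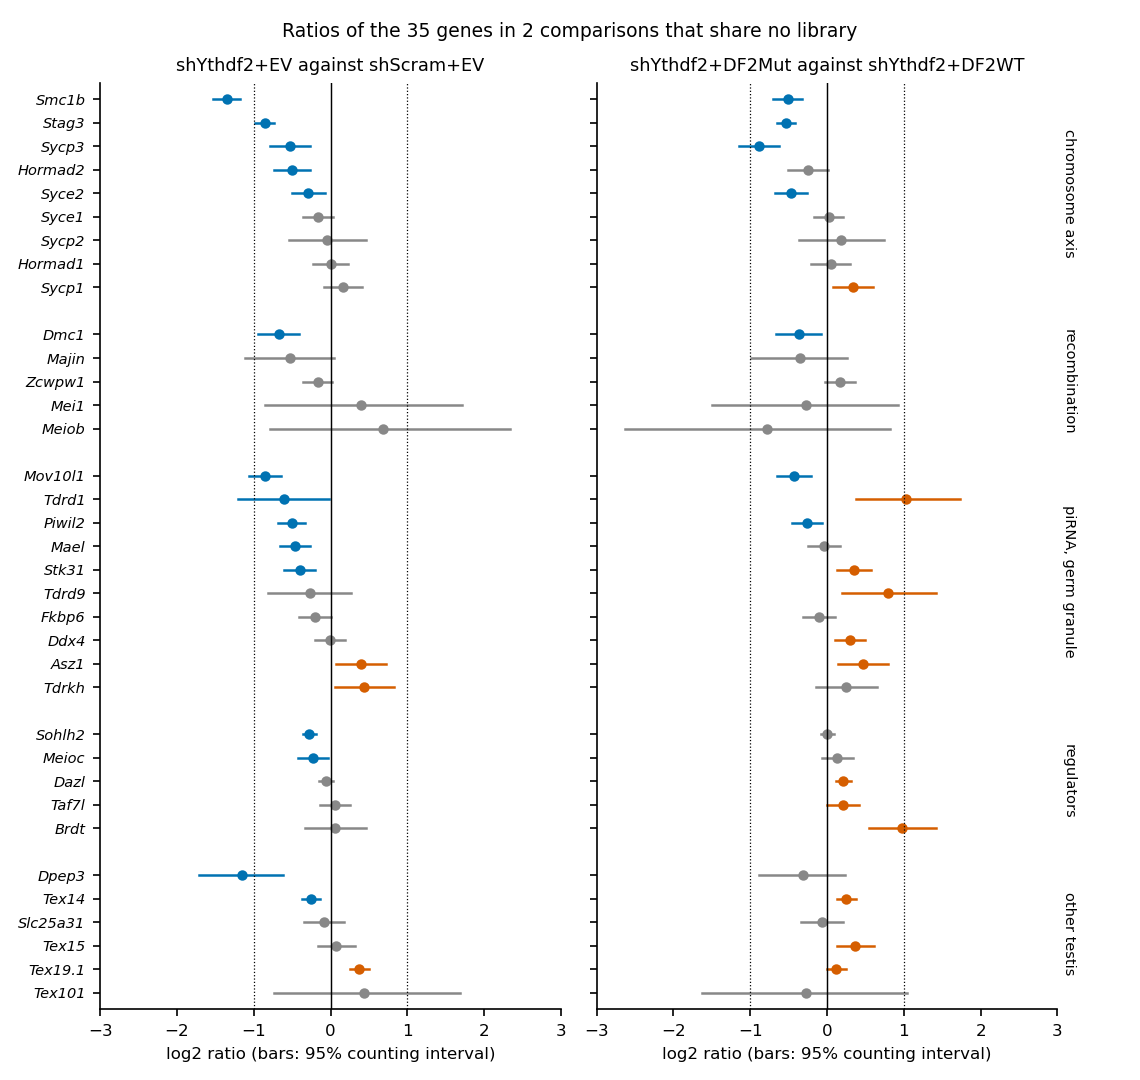
Log2 ratios of the 35 genes in shYthdf2+EV against shScram+EV (left) and shYthdf2+DF2Mut against shYthdf2+DF2WT (right). Points are log2 ratios, bars are 95% intervals for counting error only, dotted lines mark 2-fold, and blue and orange mark genes whose interval lies below or above 0; on the left 15 are blue and 3 orange, on the right 7 are blue and 12 orange.

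Among genes of recombination and telomere attachment, Dmc1, the meiotic recombinase (chromosome 15, 79445698 to 79489362), had 565, 402, 469 and 351 reads. It was highest in the scrambled control and stood at -0.68 (-0.95 to -0.41) on knockdown, 0.35 (0.07 to 0.63) for the wild-type rescue and -0.37 (-0.66 to -0.08) for the mutant against the wild type. Majin, which ties telomeres to the nuclear envelope, had the same order with fewer reads (118, 93, 106 and 80), and all 4 of its intervals hold 0. Zcwpw1, a reader of the histone marks placed by PRDM9, had 942, 955, 839 and 914 reads and a knockdown ratio of -0.17 (-0.35 to 0.02). Exons of Pilra on the opposite strand cover 10.8% of its exon bases. Mei1 and Meiob, with 20 to 30 and 11 to 24 reads per library, were too low for a difference to be seen. For Meiob the knockdown interval ran from -0.79 to 2.34, which holds both 0 and a 2-fold difference in the upward direction. Exons of Hagh on the same strand cover 17.4% of the exon bases of Meiob.

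The 10 genes of the piRNA pathway and germ granule split in both directions. By the interval 5 were lower and 2 higher on knockdown, with a median of -0.34, and 2 were lower and 5 higher for the mutant against the wild type, beside the same shares of all genes. Mov10l1, the helicase that feeds precursors into piRNA processing (chromosome 15, 88867094 to 88939355), had 993, 628, 835 and 599 reads, again with the scrambled control and the wild-type rescue on top. It stood at -0.85 (-1.06 to -0.64) on knockdown, 0.54 (0.32 to 0.75) for the wild-type rescue and -0.43 (-0.65 to -0.21) for the mutant against the wild type. Piwil2, a PIWI protein that binds piRNAs (chromosome 14, 70609926 to 70674338), had 1190, 952, 975 and 786 reads. It was -0.51 (-0.68 to -0.33) on knockdown, but the wild-type rescue was above the knockdown by only 0.16 (-0.02 to 0.35), an interval that holds 0. Mael, a germ granule protein needed for transposon silencing, had 962, 794, 805 and 758 reads, so that neither rescue came back to the scrambled control. Stk31, a Tudor domain kinase-like protein, had 873, 751, 628 and 774 reads and was lowest in the wild-type rescue.

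Asz1, a mitochondrial anchor of the piRNA machinery (chromosome 6, 18050963 to 18109060), went the other way, with 265, 396, 284 and 379 reads. The knockdown and the mutant rescue were its upper libraries, with 0.39 (0.07 to 0.72) on knockdown, -0.35 (-0.67 to -0.03) for the wild-type rescue and 0.47 (0.14 to 0.79) for the mutant against the wild type. Tdrkh, a Tudor protein of the mitochondrial surface that trims piRNAs with its partner nuclease, had 193, 297, 202 and 232 reads, with 0.43 (0.06 to 0.82) on knockdown and 0.25 (-0.15 to 0.65) for the mutant against the wild type. Exons of Oaz3 on the opposite strand cover 5.35% of its exon bases. Tdrd1, a Tudor scaffold of the germ granule (chromosome 19, 56814603 to 56858444), had 119, 89, 59 and 117 reads and was the only member 2-fold higher in the mutant than in the wild-type rescue, at 1.03 (0.38 to 1.73). It was lower on knockdown, at -0.60 (-1.20 to -0.02). Against the knockdown the wild-type rescue stood at -0.46 (-1.19 to 0.24) and the mutant at 0.57 (-0.02 to 1.17), both with intervals that hold 0. With a prior count of 5 the mutant-to-wild-type ratio of Tdrd1 was 0.98, and 0.87 once GC content and exon length were corrected for, both short of 2-fold. Tdrd9, a Tudor helicase on chromosome 12, had 123, 116, 76 and 128 reads, with the wild-type rescue lowest as for Tdrd1. Its mutant-to-wild-type ratio was 0.80 (0.20 to 1.42), where the median of chromosome 12 was -0.17. Its knockdown ratio was -0.27 (-0.81 to 0.27), near the chromosome 12 median of -0.29. Ddx4, the germ cell helicase also called VASA, and Fkbp6, a co-chaperone of piRNA loading, had knockdown ratios of -0.01 and -0.20 with intervals that hold 0. The mutant-to-wild-type ratio of Ddx4 was 0.30 (0.10 to 0.50) but -0.01 after a correction for GC content and exon length, so that its direction depends on that choice.

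The 5 regulators of germ cell gene expression had knockdown ratios between -0.28 and 0.06. By the interval 2 were lower (40%, beside 22.9% of all genes) and 0 higher (beside 23.2%). Dazl had 3954, 4326, 3416 and 3831 reads (chromosome 17, 50586421 to 50600648), with -0.06 (-0.14 to 0.03) on knockdown and -0.21 (-0.31 to -0.12) for the wild-type rescue against the knockdown. For the mutant against the wild type it stood at 0.21 (0.12 to 0.31). Once GC content and exon length were corrected for, these rescue ratios of Dazl were -0.02 against the knockdown and -0.04 for the mutant against the wild type. Sohlh2 had 4807, 4511, 4514 and 4381 reads, and was -0.28 (-0.36 to -0.19) on knockdown. Since these were the most deeply read members, their intervals exclude a 1.5-fold difference in either direction. Meioc, a partner of YTHDC2 in meiotic entry, had 874, 848, 781 and 828 reads and was -0.23 (-0.43 to -0.03) on knockdown. Taf7l, an X-linked germ cell form of a TFIID subunit, had 792, 938, 756 and 843. Brdt, the testis bromodomain protein, had 198, 235, 139 and 264 reads, with a knockdown ratio of 0.06 (-0.34 to 0.46) and a mutant-to-wild-type ratio of 0.97 (0.55 to 1.42). As with Tdrd1, the wild-type rescue was the lowest library.

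Of the remaining testis-expressed genes, Tex19.1 had 1826, 2695, 2098 and 2209 reads (chromosome 11, 121036969 to 121039140). It was lowest in the scrambled control and highest in the knockdown, at 0.38 (0.25 to 0.50) on knockdown, -0.23 (-0.35 to -0.12) for the wild-type rescue and 0.12 (0.00 to 0.25) for the mutant against the wild type. Dpep3, a membrane dipeptidase of the testis (chromosome 8, 106700152 to 106706051), had 172, 88, 129 and 100 reads and a knockdown ratio of -1.15 (-1.71 to -0.61), with 0.68 (0.10 to 1.27) for the wild-type rescue. Tex14, an intercellular bridge protein, had 2641, 2518, 2170 and 2499 reads and was -0.25 (-0.37 to -0.14) on knockdown. Tex15 and Slc25a31, a germ cell ADP/ATP carrier, differed by less than their intervals on knockdown, and Tex101 had only 20 to 34 reads per library.

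The rescue comparisons were smaller over the group. In shYthdf2+DF2WT against shYthdf2+EV no member was 2-fold higher or lower, against 5.15% and 5.58% of all genes, and the median was -0.06. By the interval 10 were higher (28.6%, beside 21.1% of all genes) and 7 lower (20%, beside 21.5%). In shYthdf2+DF2Mut against shYthdf2+EV again no member was 2-fold higher or lower, against 2.65% and 3.38% of all genes, with a median of 0.11. By the interval 7 were higher (20%, beside 14.7%) and none lower (beside 12.9%), namely Smc1b, Stag3, Stk31, Ddx4, Sohlh2, Tex14 and Syce1. In shYthdf2+DF2Mut against shYthdf2+DF2WT 1 was 2-fold higher (Tdrd1, beside 5.40% of all genes) and none 2-fold lower (beside 6.21%), with 12 higher by the interval (34.3%, beside 23.9%), 7 lower (20%, beside 23.6%) and a median of 0.02. Of those 12, Dazl, Ddx4, Sycp1, Tex14, Tex15, Taf7l and Stk31 lay between -0.04 and 0.10 once GC content and exon length were corrected for. Tex19.1, Asz1, Tdrd9, Brdt and Tdrd1 then lay between 0.32 and 0.87. At a lower limit of 1.5-fold, 1 member was higher and 6 lower on knockdown, beside 13.8% and 12.9% of all genes. For the wild-type rescue 4 were higher and 1 lower, beside 12.2% and 11.1%, and for the mutant against the knockdown 0 and 1, beside 6.50% and 8.78%. For the mutant against the wild type 3 were higher and 2 lower, beside 12.2% and 14.9%. The comparisons against shYthdf2+EV share that library with the knockdown comparison, so that their values are set side by side and no overlap between them is read.

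The knockdown comparison and the mutant-to-wild-type comparison share no library. No member was past 2-fold in both, upward or downward, where 2.54% and 1.95% of all genes were. By the interval 7 of 35 were lower in both (Sycp3, Stag3, Smc1b, Piwil2, Mov10l1, Dmc1 and Syce2), which is 20% beside 10.5% of all genes. Higher in both were 2 (Tex19.1 and Asz1), which is 5.71% beside 11.2%. The lower bound of the Tex19.1 interval was only 0.0006 for the mutant against the wild type. For Syce2 that comparison went from -0.47 to -0.20, outside its interval, once GC content and exon length were corrected for. Another 3 (Tex14, Tdrd1 and Stk31) had intervals that excluded 0 in opposite directions, 8.57% beside 7.49% of all genes, a share near the background. After the same correction their mutant-to-wild-type ratios were 0.09, 0.87 and 0.10. For the remaining 23 at least 1 of the intervals held 0. The 2 ratios had the same sign for 21 of 35 genes (60.0%), against 62.2% of all genes, a share near the background. Ordered by library, 13 members had both shScram+EV and shYthdf2+DF2WT above both shYthdf2+EV and shYthdf2+DF2Mut, where 27.5% of all genes did. In the reverse order were 7 members, where 26.4% of all genes were, and 15 fitted neither.

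**Figure D4:**
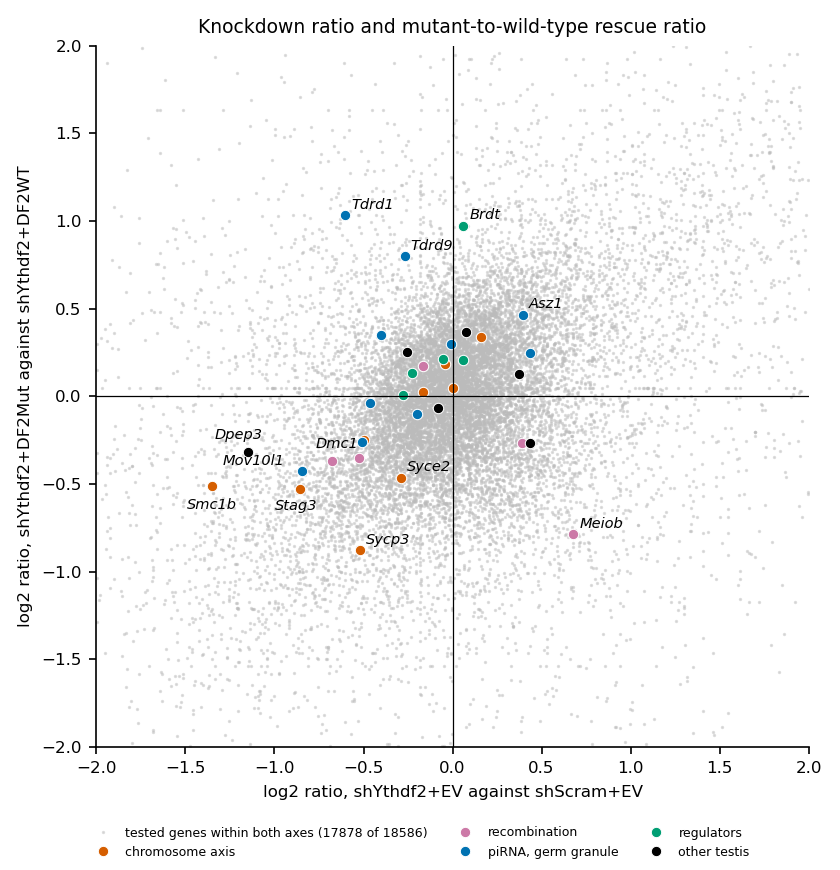
Log2 ratio in shYthdf2+EV against shScram+EV (horizontal) and in shYthdf2+DF2Mut against shYthdf2+DF2WT (vertical), with grey points for 17878 of 18586 genes that lie within the axes and coloured points for the 35 germline genes by role. Smc1b, Stag3, Mov10l1, Dmc1 and Sycp3 lie in the lower left, and Tdrd1, Tdrd9 and Brdt lie high with knockdown ratios between -0.60 and 0.06.

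**Figure D5:**
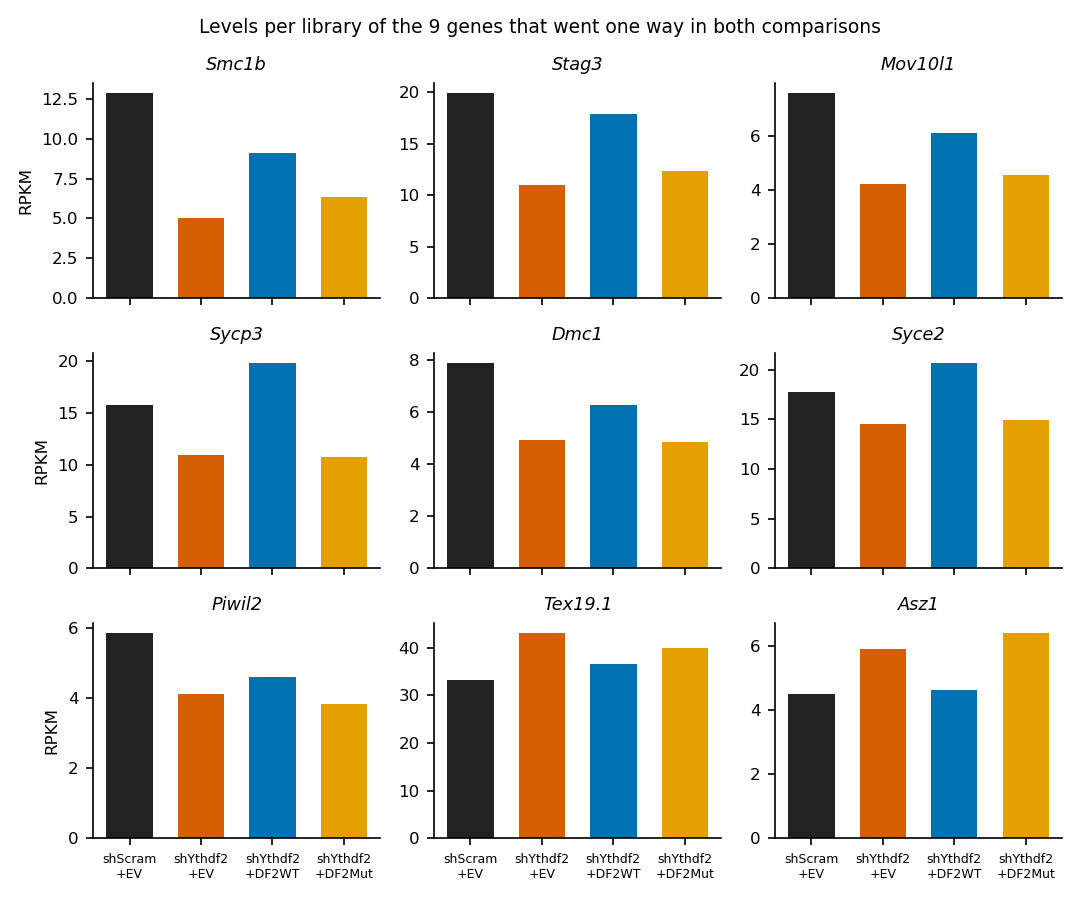
RPKM in each of the 4 libraries for the 9 genes whose intervals lay on the same side of 0 in both comparisons, 1 bar per library. In Smc1b, Stag3, Mov10l1, Sycp3, Dmc1, Syce2 and Piwil2 the bars of the scrambled control and the wild-type rescue exceed those of the knockdown and the mutant rescue, and in Tex19.1 and Asz1 they lie below them.

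Transcript composition was looked at because it can shift ratios between libraries. The median GC content of the members' longest transcripts was 43.9%, against 49.9% over 16726 genes that passed the filter and had a value. With ratios centred within bins of GC content and exon length, the knockdown median stayed near its value at -0.22, whereas the wild-type rescue median went from -0.06 to 0.09 and the mutant-to-wild-type median from 0.02 to -0.04. Smc1b then had 1.05 for the wild-type rescue and -0.76 for the mutant against the wild type, both further from 0. The 15 genes with an E-box core had a median knockdown ratio of -0.27 (from -0.86 to 0.16) and the 16 without one -0.17 (from -1.35 to 0.43), while their mutant-to-wild-type medians were 0.05 and 0.07. For the E2F-type core the knockdown medians were -0.25 over 13 genes with it and -0.17 over 18 without it, and the mutant-to-wild-type medians were -0.04 (from -0.88 to 0.34) and 0.18 (from -0.43 to 1.03). The ranges with and without a core overlap in each case.

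Other germline genes were described from a second list of 57, of which 55 were found by symbol and 48 passed the filter. On knockdown 3 were higher and 3 lower by 2-fold or more, which is 6.25% in either direction beside 7.10% and 5.70% of all genes, with a median of -0.09. By the interval 11 of 48 (22.9%) were lower and 5 (10.4%) higher, beside 22.9% and 23.2% of all genes, so that the share of lower genes was at the background in this list. The lowest ratios were those of Tdrd6 (-1.45), the lactate dehydrogenase Ldhc (-1.08), Msh5 (-1.05), Exd1 (-0.97) and Stra8 (-0.82). Stra8, the gate to meiotic entry induced by retinoic acid, was by far the most deeply read of these, with 2011, 1300, 1945 and 1019 reads. The scrambled control and the wild-type rescue were its upper libraries, with 0.71 for the wild-type rescue and -0.88 for the mutant against the wild type. Unlike for Smc1b and Stag3, the mutant rescue was not above the knockdown, at -0.17 (-0.34 to -0.01). The highest ratios were those of Henmt1 (2.38, from 5 and 32 reads), Mei4 (1.30), Meiosin (1.02), Nanos3 (0.85) and Boll (0.71), none with over 200 reads in a library. The intervals of Tdrd6, Meiosin and Nanos3 hold 0. Nanos2 had no read in any library, which allows up to 3 reads.

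The known repressors of germline genes were also examined. None of the 22 genes of that list, among them the PRC1.6 subunits and the DNA methyltransferases, differed by 2-fold in any of the 4 comparisons. Most are deeply read, and by the interval 9 were higher (40.9%) and 6 lower (27.3%) on knockdown, and 11 higher (50%) and 6 lower (27.3%) for the mutant against the wild type, beside 22.9% to 23.9% of all genes. On knockdown their log2 ratios ran from -0.32 for Dnmt3a to 0.62 for Ring1, with a median of -0.01. Mga, E2f6, Max and Pcgf6 had 0.09, -0.13, 0.23 and -0.19. Rybp, a subunit of such Polycomb complexes, had 0.36 on knockdown, -0.55 for the wild-type rescue and 0.59 for the mutant against the wild type. In the same order Setdb1, a histone H3 lysine methyltransferase, had 0.23, -0.25 and 0.42, and Mga had 0.09, -0.25 and 0.43. Ehmt2 and Dnmt3a went the other way, with -0.18, 0.41 and -0.51, and -0.32, 0.14 and -0.31. Ring1 and Max were higher on knockdown but stood at -0.45 and -0.24 for the mutant against the wild type. These are transcript levels only.

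Marker genes of other cell types that such a culture could hold also moved with the groups. Reads summed over 10 markers of 2-cell-like cells were 6503, 20738, 7921 and 18269, and those over 7 markers of primitive endoderm were 513, 831, 416 and 767. The 7 trophectoderm markers had summed reads of 4496, 3595, 4470 and 3347. Of these Tfap2c, which is also a primordial germ cell marker, had 2050, 1728, 2106 and 1522, and the simple-epithelium keratins Krt8 and Krt18 had 1217, 670, 1193 and 553, and 505, 311, 419 and 232. These had the scrambled control and the wild-type rescue as their upper libraries, as Smc1b and Stag3 did. Eomes, with 675, 841, 668 and 961 reads, had the knockdown and the mutant rescue on top instead. So did Cdx2, from few reads (8, 11, 10 and 14), while Gata3 (27, 30, 46 and 53) followed neither order. Past 2-fold in some comparison were Krt8 and Elf5 of the trophectoderm list, Gata6, Sox17, Sox7 and Dab2 of the primitive endoderm list and Col1a2 of the fibroblast list, of which Dcn and Lum had no read in any library. Sox7 had 8, 28, 18 and 36 reads, and all its intervals hold 0. Gata4 of the primitive endoderm list did not rise on knockdown, with 133, 121, 72 and 71 reads. Its log2 ratio was -0.32 on knockdown and 0.03 for the mutant against the wild type. The fibroblast list summed to 521, 416, 374 and 348 reads. The part of these other cell types in the germline ratios was not tested.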

How the data were processed

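RNA from 4 E14 cultures was made into dUTP-marked paired-end libraries. According to the file headers and the submitters' processing notes, the authors used fastp 0.19.4, HISAT2 2.2.1 and DESeq2 1.40.2, and the deposited values are raw read counts per gene from featureCounts 2.0.3. Both mates of a pair were counted as reads, strand was not used, and reads of many places or many genes were left out. The header names an mm39 RefSeq annotation while the notes list mm10; coordinates of genes are those of the counts table.

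Totals per library were 31533129 to 35742335 reads. Ratios were computed here from the deposited counts with edgeR 4.0.16 TMM factors, on genes averaging 10 reads or more, as log2 with a prior count of 0.5 scaled to library size. Intervals of ratios are 95% Clopper-Pearson intervals on read pairs (reads divided by 2). Those of shares are Wilson intervals on reads, not divided by 2. Both are for counting error only. A difference was counted at 2-fold. GC content came from GENCODE vM21 transcripts. R 4.3.3, DESeq2 1.42.0 (size factors only), Python 3.11.15 and scipy 1.17.1 were used. The ratio and interval steps were tested on simulated counts.

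All 35 members are accounted for, and from the other germline list the 5 highest and 5 lowest knockdown ratios are named; from the repressor and marker lists, genes past 2-fold. Members and lists were chosen with earlier results of these data known. Genes named outside these rules were chosen after their values were seen. The alternatives were other scalings (DESeq2, upper quartile, totals), a prior count of 5, mean counts of 1 and 50, a GC and length correction in 5 bins of each, leaving out chromosome 12, a 1.5-fold limit, and requiring the interval to exclude 0.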

Additional observations from a re-analysis of the deposited data

How the results depend on the processing

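Of 700 member ratios recomputed under another scaling, prior count or the GC and length correction, 683 stayed within their counting interval, 17 moved outside it, all under the GC and length correction (6 for the wild-type rescue against the knockdown and 11 for the mutant against the wild type), and no ratio past 2-fold changed sign. Of the 61 ratios whose interval excluded 0, 2 changed sign, both for the mutant against the wild type under that correction: Dazl from 0.21 to -0.04 and Ddx4 from 0.30 to -0.01; the cause was not tested. Of 122 recomputed counts and medians, 112 stayed. With a prior count of 5, no member was 2-fold higher in the mutant than in the wild-type rescue (0 in place of 1, Tdrd1), and with the GC and length correction this was also 0, while 1 member, Smc1b, was then 2-fold higher in the wild-type rescue than in the knockdown. With a limit of 1.5-fold, 1 member was higher and 6 lower on knockdown, 4 higher and 1 lower in the wild-type rescue against the knockdown, 1 lower in the mutant against the knockdown, and 3 higher and 2 lower in the mutant against the wild type, all given above beside the shares of all genes. These follow from the lower limit itself. The knockdown median ran from -0.24 to -0.16 over the alternatives. No paired analysis was possible because each group has 1 library. Depth limits Meiob, Mei1 and Tex101, whose knockdown intervals span more than a factor of 4 in ratio.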

Other observations

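Markers of primordial germ cells, the embryonic precursors of the germline, were described from a list of 8 genes that shares no gene with the 35. Their summed reads were 12644 for the scrambled control, 9552 for the knockdown, 11019 for the wild-type rescue and 9116 for the mutant rescue. Kit, a receptor of germ cells and their precursors, had more of them than any other of the 8, with 7441, 4720, 5801 and 4655. The knockdown log2 ratio of Kit was -0.84 and that of Tfap2c, a germ cell specifier, -0.43. Prdm1 and Prdm14 had -0.17 and -0.24. Nanos3 alone passed 2-fold, at -1.07 for the wild-type rescue against the knockdown and 1.54 for the mutant against the wild type, from 28, 58, 25 and 71 reads. With 1 library a group these are values without a test.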
